A study of Homo sapiens with 18 samples.

Results

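HMGA2 and CCAT1 are grouped here as oncofetal genes, a term for genes active in embryonic or fetal tissue, low in most adult tissue and active again in tumours. Whether CCAT1 fits the fetal part of the term was not tested. HMGA2 encodes a chromatin protein and CCAT1 (colon cancer associated transcript 1) a long noncoding RNA. They were followed in UMRC2, an established cell line of clear cell renal cell carcinoma (ccRCC), when FTO was depleted by short hairpin RNA. Both were picked by name from the 1242 genes in the authors' deposited table, and both were picked because they were higher with the hairpin shFTO#5, so the values with that hairpin are given as a description and not as a test. The 1242 genes were those that the authors had called at an adjusted p under 0.05 with shFTO#5, which is 13.0% of the 9551 genes they tested (8.18% called higher, 4.83% called lower). That either gene stands in that list is not read as a result, and its rank there, given below, is a description.

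The RNA-seq part of the series had 6 libraries, 2 from cells with shFTO#5, 2 from cells with shFTO#2 and 2 from cells with the control hairpin shControl. All cells were UMRC2 grown in the same serum-supplemented medium. The sample titles name the hairpins as above, while the design text of the series speaks of shSCM, shFTO#1 and shFTO#2, and the titles were followed. The titles number the libraries of a group as replicates but do not say whether each was a culture of its own. The errors and p-values below therefore cover only how far these libraries lay apart, a spread that may be technical. The totals to which the libraries were scaled ran from 14548533 to 18184675 reads. FTO removes N6-methyladenosine (m6A) from RNA, and its own level checks the labels of shFTO#5. The shFTO#2 values had to be tied to their genes partly by level, as set out below, so there FTO is no independent check. For FTO, 2 entries gave whole reads and 1 of these fitted in level. FTO was at 0.555 and 0.526 FPKM (fragments scaled for the length of the gene and the size of the library) with shFTO#5, at 0.882 and 0.720 FPKM with shFTO#2 and at 1.99 and 2.37 FPKM with shControl. It was thus left at 24.8% of the control mean with shFTO#5 and at 36.7% with shFTO#2.

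HMGA2 binds the minor groove of AT-rich DNA through short AT-hook motifs and bends chromatin so that other factors can assemble on it. It is abundant in the embryo, is shut down in most adult tissues and reappears in many carcinomas, where it is linked to epithelial-mesenchymal transition. Its messenger RNA is a classic target of the let-7 microRNAs, which bind sites in the long 3′ untranslated region (3′UTR) and silence it as cells differentiate. CCAT1 was described first in colon cancer, where it is transcribed from an enhancer region upstream of MYC and takes part in the chromatin loop between that region and the MYC promoter.

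The let-7 seed and the sites it can pair with are shown because they are the best known control element of HMGA2 and because they fall in a part of the gene that bears on how its level was scaled. All 9 let-7 family members examined (let-7a, b, c, d, e, f, g and i, and miR-98, each the 5p arm) had the same seed in RefSeq (GRCh38.p14), GAGGUAG. The capitals mark the seed, bases 2 to 8, in 3 of them.
hsa-let-7a-5p: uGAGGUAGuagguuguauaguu
hsa-let-7b-5p: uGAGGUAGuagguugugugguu
hsa-miR-98-5p: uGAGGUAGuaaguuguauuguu
The searched motif was CTACCTC, the reverse complement of the seed, on the strand of the transcript only. HMGA2 lies on the plus strand of chromosome 12, at chr12:65824131-65966295 (hg38, GENCODE v29). Its transcript HMGA2-204, with 5 exons and 4473 bases, held the motif 4 times in a 3′UTR of 3003 bases, all in the last exon. The capitals mark the motif, on the plus strand of GRCh38.
HMGA2 site 1 (chr12:65963297-65963320): cgccaacgttcgatttCTACCTCa
HMGA2 site 2 (chr12:65964532-65964555): tccccactactcaataCTACCTCt
HMGA2 site 3 (chr12:65964944-65964967): attgacttgcaaagacCTACCTCc
HMGA2 site 4 (chr12:65965797-65965820): caatcaaaacacactaCTACCTCt
The motif starts at base 21 of the 3′UTR in site 1, at 1256 in site 2, at 1668 in site 3 and at 2521 in site 4, and of these 4 only site 1 is followed by an A. Of 19141 protein-coding genes in GENCODE v29, 10.5% held the motif at least 1 time in a 3′UTR, and 33 genes held it 3 times or more. Of the 1222 listed genes with an annotated 3′UTR, 132 (10.8%) held it, and 2 of them held it 3 times or more. These 2 were HMGA2 and a row that the table names MIR4720. A match is a string of letters and not a measured binding site.

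**Figure D1:**
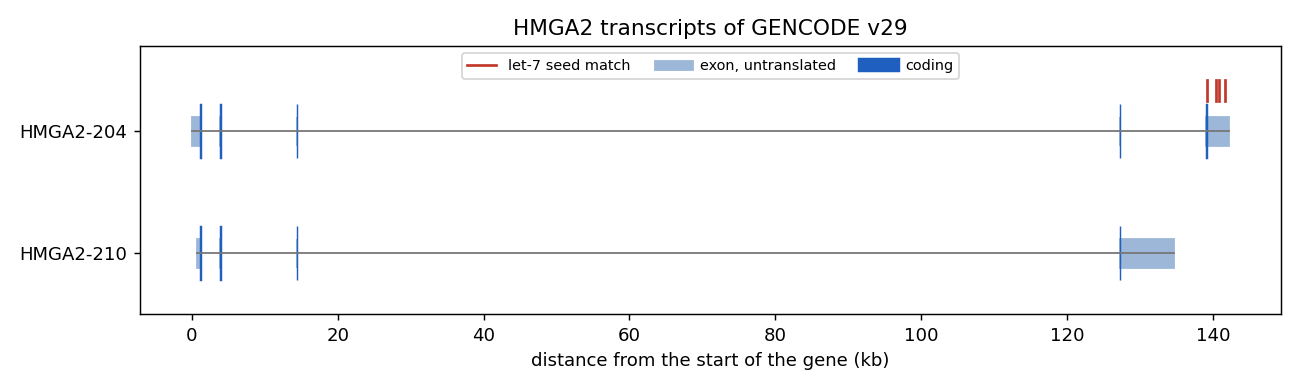
Exons of HMGA2-204 and HMGA2-210 along the gene, in kilobases from the start of the gene, with coding parts tall and dark, untranslated parts low and pale, and the 4 let-7 seed matches as red ticks. All 4 matches lie in the last exon of HMGA2-204, which HMGA2-210 lacks.

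The deposited table gave HMGA2 a length of 8094 bases, which equals the longest of its 11 GENCODE v29 transcripts, HMGA2-210. That transcript ends in another last exon, has a 3′UTR of 7421 bases and held no let-7 seed match in it. It shares 655 exonic bases with HMGA2-204, or 8.09% of HMGA2-210 and 14.6% of HMGA2-204. Across the table the length equalled that of the longest transcript in 923 of 1230 matched genes (75.0%). Dividing by 4473 bases in place of 8094 would put the HMGA2 level at 11.8 ± 0.174 FPKM with shFTO#5, 14.9 ± 0.287 with shFTO#2 and 7.49 ± 0.559 with shControl (SD, n = 2 each). The length cancels in the ratio of FPKM between groups, so the folds below do not depend on it if the same length holds for all groups. It does not cancel in differences of log2(FPKM + 1). Those differences for HMGA2, the ranks and distances built on them, and its rank by level depend on the length used. Which transcripts the reads came from was not given in the table.

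HMGA2 (ENSG00000149948) was higher with both hairpins against FTO than with shControl. Its level was 6.43 and 6.56 FPKM (757 and 893 reads) with shFTO#5. It was 8.33 and 8.11 FPKM (1177 and 1023 reads) with shFTO#2, and 3.92 and 4.36 FPKM (577 and 573 reads) with shControl. The 3 groups did not overlap, with the shFTO#2 libraries highest and the shControl libraries lowest. Every listed gene was called against shControl, so lying apart from shControl does not set HMGA2 apart. Both shFTO#2 libraries lay above both shFTO#5 libraries in 27.8% of the 561 genes with values for both hairpins. The means were 6.50 ± 0.0961 FPKM with shFTO#5, 8.22 ± 0.159 with shFTO#2 and 4.14 ± 0.309 with shControl (SD, n = 2 each), which makes the level 1.57-fold that of shControl with shFTO#5 and 1.99-fold with shFTO#2. As a difference of log2(FPKM + 1), in which low genes change by less than their fold, the change from shControl was 0.55 ± 0.06 with shFTO#5 (limma standard error). The authors' deposited table gave log2 fold changes of 0.58 (adjusted p = 7.97e-08) with shFTO#5 and 0.85 (adjusted p = 4.96e-18) with shFTO#2, with the sign turned to knockdown over control. In bulk RNA, a larger share of cells with the transcript and more RNA per cell cannot be told apart.

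CCAT1 (ENSG00000247844) was also higher with both hairpins than with shControl. It stood at 15.3 and 15.9 FPKM (474 and 569 reads) with shFTO#5. It stood at 15.6 and 13.5 FPKM (579 and 450 reads) with shFTO#2, and at 7.90 and 7.39 FPKM (306 and 256 reads) with shControl. All 4 knockdown libraries lay above both control libraries, which does not set CCAT1 apart among genes that were all called against shControl. The libraries of the 2 hairpins overlapped. The means were 15.6 ± 0.423 FPKM with shFTO#5, 14.6 ± 1.43 with shFTO#2 and 7.65 ± 0.355 with shControl (SD, n = 2 each), or 2.04-fold the shControl mean with shFTO#5 and 1.90-fold with shFTO#2. The difference from shControl with shFTO#5 was 0.94 ± 0.06 on the log2(FPKM + 1) scale. The authors' deposited table gave 0.82 (adjusted p = 2.39e-11) with shFTO#5 and 0.69 (adjusted p = 6.63e-08) with shFTO#2 for the log2 fold change. Per unit of length, CCAT1 was above HMGA2 in every library as deposited, but with the shorter HMGA2-204 length the shFTO#2 means would be 14.6 ± 1.43 FPKM for CCAT1 and 14.9 ± 0.287 FPKM for HMGA2.

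**Figure D2:**
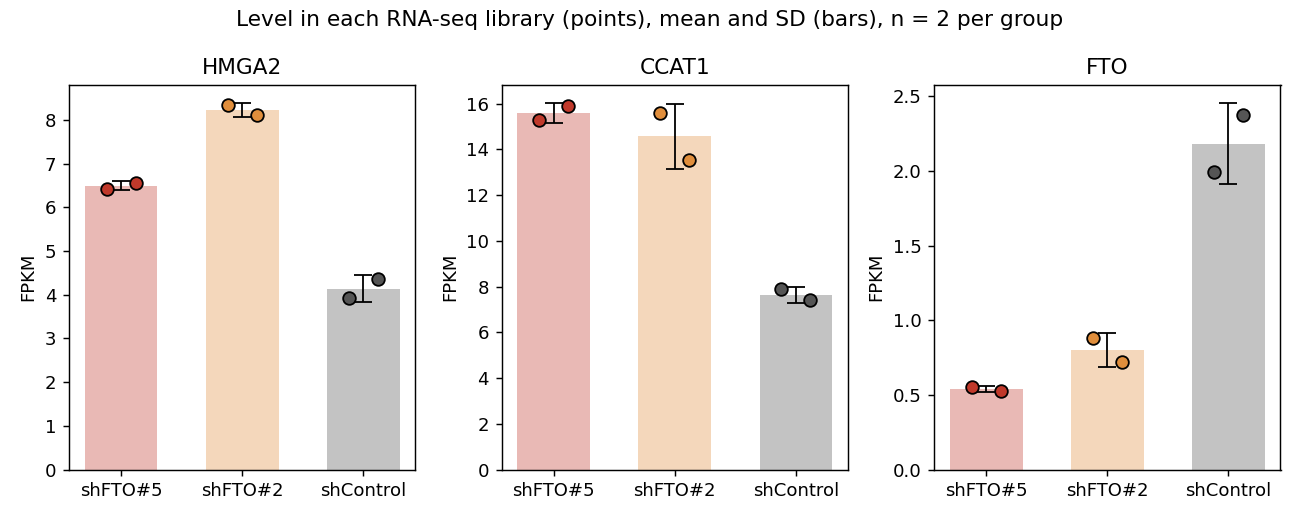
Level in FPKM (vertical axes from 0) of HMGA2, CCAT1 and FTO in each library (points), with the mean and SD (bars and whiskers, n = 2) for shFTO#5, shFTO#2 and shControl. HMGA2 is highest with shFTO#2, CCAT1 overlaps between the hairpins, and FTO is lowest with shFTO#5.

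The shFTO#2 libraries are not those that the choice of these genes names, and they were tested. The choice was made with earlier results of these libraries known, and the shControl libraries are the same, so the test is not independent of it. The deposited shFTO#2 entries, 766 in all, were not on the lines of their genes, and 561 of them could be tied to a listed gene through the whole reads they must give. For HMGA2, 4 entries gave whole reads in both libraries, 2 of these also fitted in level, and gene order left 1. For CCAT1 a single entry gave whole reads. HMGA2 differed from shControl by 0.84 ± 0.06 (adjusted p = 4.78e-06) and CCAT1 by 0.85 ± 0.07 (adjusted p = 1.30e-05) on the log2(FPKM + 1) scale, by limma with Benjamini-Hochberg adjustment over the 561 genes. Each entry was itself an authors' call, 7.63% of 10038 genes tested with shFTO#2 (4.17% higher, 3.46% lower), and limma called 100% of the 561 (62.9% higher). A call for either gene therefore sets it apart from none of the others. The exact permutation test of 2 libraries against 2 gave p = 0.333 for each gene, two-sided, which is the smallest this design allows.

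The 2 genes differed in how they stood between the hairpins. For HMGA2 the difference of shFTO#5 minus shFTO#2 was -0.30 ± 0.06 on the log2(FPKM + 1) scale, and both shFTO#2 libraries lay above both shFTO#5 libraries, as they did in 27.8% of the 561 genes. For CCAT1 the same difference was 0.10 ± 0.07, and its groups overlapped. Either kind of separation between the hairpins, in one direction or the other, was found in 58.6% of the 561 genes, whatever its size. FTO itself differed by -0.22 ± 0.07, being lower with shFTO#5, the hairpin with the lower HMGA2. Whether the depth of the knockdown had a part in this was not tested.

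By log2(FPKM + 1) difference, CCAT1 ranked 5 of 1242 listed genes with shFTO#5, between CDCP1 (0.97) and TM4SF1 (0.93). HMGA2 ranked 40, between NT5E (0.55) and WNT7B (0.54). Both were chosen for a rise with shFTO#5, so these ranks only describe that choice. With shFTO#2 they ranked 5 and 6 of 561, at 0.85 for CCAT1 and 0.84 for HMGA2, with the ribonucleotide reductase subunit RRM2 (0.84) next. By fold with shFTO#2, HMGA2 ranked 5 and CCAT1 ranked 7. Each of the 561 genes was called with both hairpins. On the log2(FPKM + 1) scale the median change was 0.15 over the 1242 genes with shFTO#5 and 0.17 over the 561 with shFTO#2. Both genes were at the low end of the table in level. Of the 1242 genes, 54 (4.35%) had a lower shControl mean than HMGA2 and 141 (11.4%) a lower one than CCAT1.

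**Figure D3:**
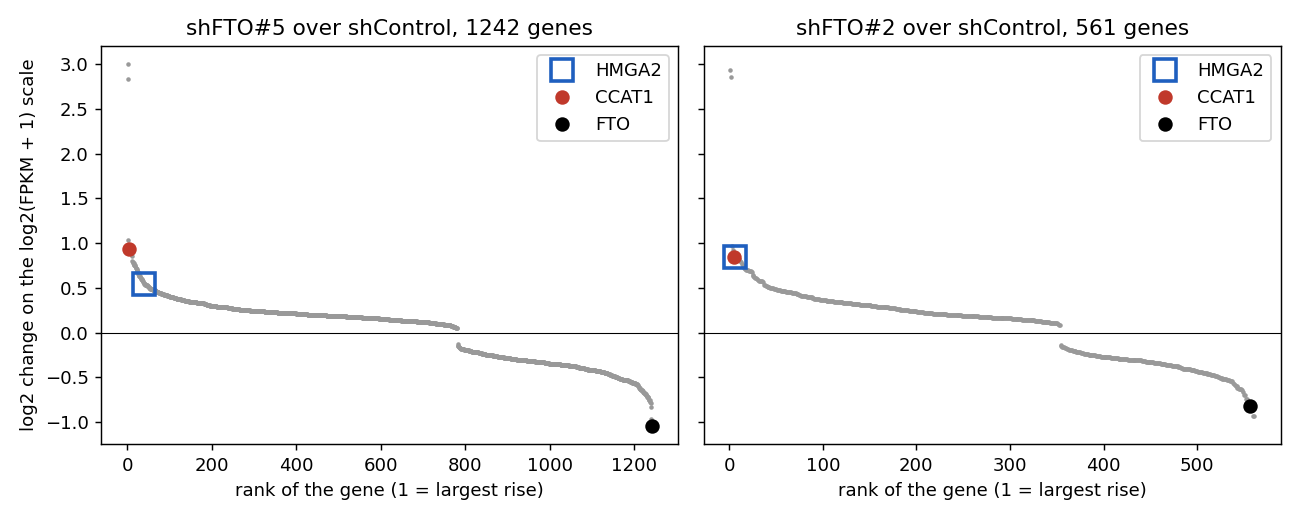
Change over shControl on the log2(FPKM + 1) scale (vertical axis) of every listed gene in order of rank, for shFTO#5 (left, 1242 genes) and shFTO#2 (right, 561 genes), with HMGA2 as an open square and CCAT1 and FTO as filled circles. CCAT1 ranks 5 in both panels, while HMGA2 ranks 40 on the left and 6 on the right, where its square surrounds CCAT1.

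The closest relatives of HMGA2 in the table were few. Of 14 high mobility group genes, 2 (14.3%) were listed, against 13.0% called over all genes tested. HMGA2 is 1 of these 2 and was picked from the listed genes, so the share is no result. Here and below, the share of a list is over all its names, whether or not the authors tested them. The 13.0% is over tested genes only, so it does not measure a like set. Both listed genes were higher with each hairpin, but HMGA2 was chosen for that. HMGA1, the other AT-hook protein of the family, stood at 712 ± 53.1 FPKM with shFTO#5, 722 ± 29.1 with shFTO#2 and 583 ± 10.8 with shControl, a change of 0.29 with shFTO#5 and 0.31 with shFTO#2. HMGA1 was thus present at a far higher level than HMGA2 and changed by less than it. The HMGB and HMGN genes were not among the listed genes and are not analysed here.

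Of 20 oncofetal genes, 3 (15.0%) were listed, against 13.0% called over all genes tested. HMGA2 and CCAT1 are 2 of these 3 and were picked from the listed genes. Their being listed was thus fixed in advance, and the share is no result. With each hairpin 2 were higher (HMGA2 and CCAT1, which were chosen for that) and 1 was lower. The lower one was PEG10, an imprinted gene derived from a retrotransposon and active in placenta, at 111 ± 2.51 FPKM with shFTO#5, 115 ± 1.42 with shFTO#2 and 142 ± 3.76 with shControl. Its change was -0.35 with shFTO#5 and -0.30 with shFTO#2. The 3 listed genes thus moved in both directions. IGF2BP1, IGF2BP2, IGF2BP3, LIN28B, IGF2 and H19 were in the list of 20 but not in the table, and are not analysed here.

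Of 30 genes of the let-7 pathway and its targets, 8 (26.7%) were listed, where 13.0% of all genes tested were called. With shFTO#5, 6 were higher and 2 lower, with a median change of 0.27 against 0.15 over all listed genes. HMGA2 is one of the higher genes and was chosen for that. The list was also chosen with earlier results of these data known, so these counts are a description and not a test. Of the 6 with shFTO#2 values, 5 were higher and 1 lower. Listed genes as a whole were 781 higher and 461 lower. RRM2, which makes deoxynucleotides for DNA synthesis, changed by 0.78 with shFTO#5 and 0.84 with shFTO#2. The cyclin CCND1 changed by 0.44 and its kinase CDK6 by 0.25 with shFTO#5, and by 0.41 for CCND1 and 0.28 for CDK6 with shFTO#2. XPO5, which exports microRNA precursors from the nucleus, changed by 0.22 with shFTO#5. The cyclin CCND2 went the other way, by -0.41 with shFTO#5 and -0.31 with shFTO#2, as did the receptor TGFBR1, by -0.32 with shFTO#5. The share of higher genes was about the same with and without the seed match. Of the 132 listed genes with a match in a 3′UTR, 62.9% were higher with shFTO#5 (83 higher, 49 lower, median 0.16). Of the 1090 without one, 63.1% were higher (median 0.15). Both groups hold only genes called with shFTO#5, and a match counted in any annotated coding transcript, expressed or not. Whether let-7 had a part was not tested.

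Among 19 genes named as targets or partners of HMGA2, 3 (15.8%) were listed, against 13.0% called over all genes tested. HMGA1 and the cyclin CCNB2 were higher with shFTO#5, CCNB2 by 0.20. Fibronectin (FN1), a mesenchymal matrix protein, was lower, at 12.3 ± 0.555 FPKM with shFTO#5, 11.5 ± 0.419 with shFTO#2 and 17.0 ± 1.25 with shControl. Its change was -0.43 with shFTO#5 and -0.52 with shFTO#2. Of 13 genes named as partners or targets of CCAT1, 2 (15.4%) were listed, against the same 13.0%. These were CCND1 and the RNA-binding protein HNRNPK, HNRNPK with a change of 0.10 with shFTO#5.

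CCAT1 was set beside known long noncoding RNAs and beside the genes that the table does not type as protein coding. Of 36 known long noncoding RNAs, 3 (8.33%) were listed with shFTO#5, against 13.0% called over all genes tested. These were CCAT1, GAS5 (the host of snoRNAs, 0.22) and LINC00657 (also called NORAD, which binds Pumilio proteins, -0.27). The 36 were counted whether or not the authors tested them, and CCAT1 was picked from the listed genes, so the share is no result. The table typed 22 genes as something other than protein coding, 7 of them higher and 15 lower with shFTO#5, with a median of -0.32, against 781 higher, 461 lower and a median of 0.15 over all listed genes. Among these 22, CCAT1 had the largest change with shFTO#5, but it was chosen for a rise with that hairpin. The lincRNA RP11-395G23.3 followed among the higher ones by log2(FPKM + 1) difference (0.45, 1.40-fold), and MIR4720 followed by fold (0.41, 1.69-fold). Many of the 22, such as POLDIP2, SEMA3B, UHRF1, NEFL, SLC37A4 and RECQL4, are known protein-coding genes. The row named MIR4720 has a protein-coding transcript in GENCODE v29, with a 3′UTR of 13288 bases. The type is thus that of the table, and the split and median of the 22 do not describe noncoding RNAs.

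The neighbours of both genes in the genome were largely outside the table. CCAT1 lies at chr8:127207382-127219268 (RefSeq, GRCh38.p14), a span of 11887 bases. It falls within the annotated spans of CASC19 and PCAT1, neither of which was listed. MYC, 516 kb away, was not among the listed genes and is not analysed here. The one listed gene within 1 Mb of CCAT1 was FAM84B, 0.649 Mb away, at 11.8 ± 0.263 FPKM with shFTO#5 and 15.5 ± 0.176 with shControl (SD, n = 2 each), a change of -0.37, opposite in sign to that of CCAT1. No listed gene lay within 1 Mb of HMGA2. RASSF3, farther off on the same chromosome arm, changed by 0.43 with shFTO#5 and 0.35 with shFTO#2. HMGA2 overlaps the antisense pseudogene RPSAP52 and 3 other noncoding genes, none of them listed. The sources used here do not give the strand setting of the counting, so reads of overlapping genes could not be told apart for either gene.

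Of 22 genes downstream of MAP kinase signalling, the AP-1 factors included, 10 (45.5%) were listed, where 13.0% of all genes tested were called. These 22 genes were chosen with earlier results of these data known, so the share is a description and not a test. With shFTO#5, 7 were higher and 3 lower, with a median of 0.46. All listed genes together split into 781 higher and 461 lower, with a median of 0.15. The AP-1 subunit FOSL1 stood at 236 ± 6.19 FPKM with shFTO#5, 203 ± 3.03 with shFTO#2 and 114 ± 5.85 with shControl, a change of 1.04 with shFTO#5 and 0.82 with shFTO#2. The subunit JUND was lower, by -0.78 with shFTO#5 and -0.63 with shFTO#2, and so was the early-response factor EGR1, by -0.57 with each. The receptor kinase EPHA2 changed by 0.48 with shFTO#5 and 0.40 with shFTO#2.

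Markers of the cell type and of the m6A pathway were read in the same way. Of 13 markers of kidney epithelium and renal carcinoma, 6 (46.2%) were listed, where 13.0% of all genes tested were called. The markers were chosen with earlier results of these data known, so the share is no test. With shFTO#5, 4 were higher and 2 lower, a split near that of all listed genes (781 higher, 461 lower). The renal transcription factor PAX8 was at 88.6 ± 2.38 FPKM with shFTO#5, 96.7 ± 3.68 with shFTO#2 and 77.9 ± 2.10 with shControl. The related factor PAX2 was at 5.03 ± 0.110 FPKM with shFTO#5, 5.58 ± 0.272 with shFTO#2 and 7.70 ± 0.139 with shControl, a change of -0.53 with shFTO#5 and -0.40 with shFTO#2. The keratin KRT18 changed by 0.65 and KRT8 by 0.18 with shFTO#5, the hypoxia-induced carbonic anhydrase CA9 by 0.40, and the proximal tubule receptor LRP2 by -0.58. The 6 listed markers moved in both directions. A gene had to be expressed to be called, so the detection of listed markers was set in advance. The other markers of the 13 have no values here. None of 14 immune, endothelial and fibroblast markers was listed, and their levels are not analysed here. Of 18 genes of the m6A machinery, 3 (16.7%) were listed, against 13.0% called over all genes tested. These were the targeted gene FTO, the reader YTHDF3 (0.15) and HNRNPA2B1 (0.08). The part of any of these genes in the levels of HMGA2 and CCAT1 was not tested.

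**Figure D4:**
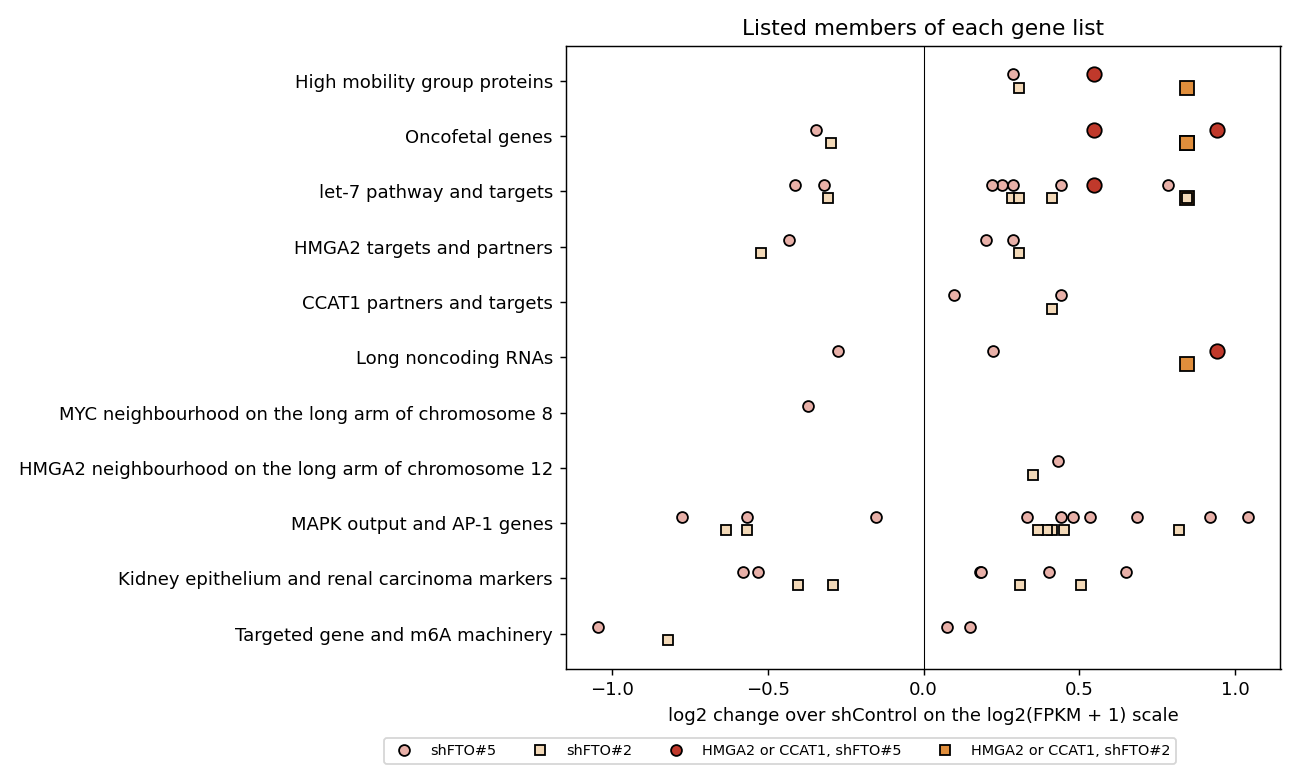
Change over shControl on the log2(FPKM + 1) scale (horizontal axis) of the listed members of each gene list, as circles for shFTO#5 and squares for shFTO#2, with HMGA2 and CCAT1 in the darker colours. The 3 listed oncofetal genes lie on both sides of 0, as do the listed let-7 targets and MAP kinase genes, and in the let-7 row the shFTO#2 squares of HMGA2 and RRM2 coincide.

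The genes nearest to each in pattern were sought by Euclidean distance over the 4 shFTO#5 and shControl libraries, on log2(FPKM + 1) after subtracting the shControl mean. For HMGA2 they were NT5E, an ectonucleotidase of the cell surface (0.0776), the Wnt ligand WNT7B (0.0826), the spliceosome protein SNRPD3 (0.0928), the integrin subunit ITGA3 (0.0985) and the secreted lipase inhibitor ANGPTL4 (0.101). For CCAT1 they were the nectin-like receptor PVR (0.0932), the membrane protein EMP1 (0.112), the mitochondrial sulfide oxidase SQRDL (0.118), the transporter SLCO4A1 (0.134) and the tetraspanin-like TM4SF1 (0.143). The distance between HMGA2 and CCAT1 was 0.577. CCAT1 came 623rd in nearness to HMGA2, and HMGA2 came 40th in nearness to CCAT1. Such likeness over 4 libraries of 2 groups, among genes all called in that contrast, describes little beyond the size of the change.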

How the data were processed

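The authors deposited FPKM per library, and the gene length behind it, per the file headers, for genes they had called with shFTO#5. Each log2 fold change with its p-value, raw and adjusted, was also deposited by the authors. By the values, their log2 fold changes ran as control over knockdown, and the sign was reversed. Trim Galore 0.4.2, STAR, RSEM and hg38 are named, without role or order, in the submitters' processing notes. The sources used here give neither the tool of the differential test nor the annotation release. The 12 m6A libraries are not analysed here.

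FPKM times length times the library total gave whole reads for all 1242 genes (tolerance 1e-05). The number of genes the authors tested follows from how adjusted p relates to raw p under Benjamini-Hochberg. Displaced shFTO#2 values were tied to genes by whole reads in both libraries, by a level within 0.15 (log2) of the authors' fold change, or within its size where larger, and by gene order. The level also had to lie on the same side of shControl as that fold change. Limma 3.58.1 (R 4.3.3) was fitted to log2(FPKM + 1), with a trend of the variance on the level, on genes that reached 1 FPKM in 2 or more libraries, with shFTO#5 and shControl on 1242 genes, and with all groups on 561 genes for shFTO#2. Replicates differed beyond sampling noise (chi-square over its degrees of freedom 2.41 for shFTO#5, 4.54 for shFTO#2 and 3.58 for shControl) and were kept separate. The matching and the limma fits were tested on simulated data. A log2 change given without another scale is a difference of log2(FPKM + 1) means.

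HMGA2, CCAT1 and the gene lists were chosen with earlier results of these data known. Genes named are these 2, FTO, listed members of the lists, the 5 nearest to each in pattern and listed genes within 1 Mb. Listed genes that the table does not type as protein coding are named too. CDCP1 was named afterwards as a neighbour in rank, and MIR4720 for its matches.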

Additional observations from a re-analysis of the deposited data

How the results depend on the processing

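No alternative turned the direction of HMGA2 or CCAT1. With shFTO#5, the HMGA2 change of 0.55 became 0.64 with a pseudocount of 0.1 FPKM, 0.46 with libraries centred on their median and 0.63 with quantile normalization. The CCAT1 change of 0.94 became 1.02 with that pseudocount and 0.85 with centring. Leaving out 1 library at a time gave 0.48 to 0.61 for HMGA2 and 0.90 to 0.98 for CCAT1. With shFTO#2, the changes under 13 alternatives ran at 0.70 to 0.98 for HMGA2 and at 0.70 to 0.94 for CCAT1. Where no group was cut to 1 library, the limma adjusted p ran from 3.60e-10 to 0.000224 for HMGA2. For CCAT1 the limma adjusted p then ran from 6.68e-10 to 0.000923. These p-values say little about the stability of either gene, since limma called 399 to 562 genes under the same settings. Where 1 library was left in a group, it was assumed to vary like the other groups. Leaving out libraries gave 0.78 to 0.91 for HMGA2 and 0.75 to 0.94 for CCAT1. Centring shifted the median of the fitted genes by -0.15 with shFTO#2 and -0.09 with shFTO#5. It moved the limma calls with shFTO#2 to 399 of 561 genes, 47.9% of them higher. Quantile normalization moved these calls to 470, 56.6% higher, against 561 and 62.9% as deposited. Both scalings were set on listed genes only, all of them called and most of them higher, so their median is no neutral reference. Under centring, and under quantile normalization, 1 listed gene of the m6A machinery was higher with shFTO#5, against 2 as deposited, while the counts of the other lists stayed within 1.5 times. With the pseudocount of 0.1 FPKM, 5 of the 10 nearest genes stayed the same, 1 for HMGA2 (ITGA3) and 4 for CCAT1. With the replicate number as a replicate block, the changes remained 0.55 and 0.84 for HMGA2 and 0.94 and 0.85 for CCAT1, and the shFTO#2 limma adjusted p was 1.09e-06 for HMGA2 and 1.59e-06 for CCAT1. The deviations of same-numbered libraries correlated by 0.03 between shFTO#5 and shControl, 0.22 between shFTO#2 and shControl and 0.12 between the hairpins, over 561 genes, and nothing in the labels says that a number marks a shared culture or day. At 256 to 1177 reads per library for these 2 genes, counting error was small beside the differences from shControl.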
